A study of Mus musculus with 5 samples.

Results

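The Gimap genes encode GTPases of the immunity-associated protein family, and the 8 mouse members, Gimap1, Gimap3, Gimap4, Gimap5, Gimap6, Gimap7, Gimap8 and Gimap9, were all found by symbol among the 34970 genes of the deposited count table. The family was taken up because Gimap3 and Gimap6 stood among the largest differences between blood cells and the reprogrammed cells, so the members were chosen by the ratio of those libraries, which is therefore given as a description only. RNA sequencing had been done on 5 wild-type mouse libraries, 1 per group. MCC is the library of the myeloid-like cell complex, in a series about turning fibroblasts directly into macrophages. PB is labelled as plasma blood cells and described in the design text as CD45-positive, BM is bone marrow, and iPSC and MEF are, by the usual reading of these abbreviations, induced pluripotent stem cells and mouse embryonic fibroblasts. The sources used here do not say how the MCC cells were made, which treatment they had, or the strain, age, sex and pooling of the animals.

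GIMAP proteins bind GTP, are related in structure to the septins, and are found mainly in lymphocytes, where several of them sit on the membranes of the endoplasmic reticulum, lysosomes or Golgi. They are known for keeping resting T and B cells alive: loss of Gimap5 in rats or mice depletes peripheral T cells, and loss of Gimap1 in mouse lymphocytes removes mature T and B cells. Gimap3 is a close relative of Gimap5 and was linked in mice to the inheritance of mitochondrial DNA in blood cells, Gimap4 to the pace of T cell death, and Gimap6 to autophagy. Gimap8 is the largest member and holds several GTPase domains.

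Total counts were between 30078366 in PB and 47557598 in MCC, and each level is in CPM, the read count of a gene normalised to the depth of its library after TMM scaling. Since each group is a single library, replicate spread could not be estimated and no p-value is given; the 95% intervals are exact and cover counting error only, and sequenced reads are not independent molecules. PB carries a library code distant from the codes of MCC, BM, iPSC and MEF, and a batch effect cannot be told apart from what is particular to PB. Haemoglobin genes took 9.04% of counts in PB, 1.06% in BM and at most 0.00102% in the rest. In bulk RNA, fewer cells of a type and less RNA per cell cannot be told apart either. The labels were checked against cell type genes. Macrophage genes reached 5 CPM for 12 of 12 in MCC and 0 of 12 in MEF, T cell receptor and coreceptor genes for 20 of 20 in PB, neutrophil genes for 12 of 12 in BM, pluripotency genes for 8 of 8 in iPSC and fibroblast genes for 10 of 10 in MEF and 10 of 10 in MCC. Several lists were shared between libraries. Macrophage genes also reached 5 CPM for 12 of 12 in BM and 7 of 12 in PB, and T cell genes for 14 of 20 in BM. Neutrophil genes did so for 9 of 12 in PB, and B cell genes for 12 of 12 in PB and in BM. In PB the T cell list summed to 2655 CPM, the B cell list to 4317 CPM and the neutrophil list to 7817 CPM. In MCC 2 of the 20 T cell genes reached 5 CPM: Thy1, which fibroblasts also make, and the costimulatory receptor gene Cd28. Cd3e, the defining gene, had 0 reads in MCC.

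The 8 genes lie together on mm10 chromosome 6, between 48647234 and 48770851 in GENCODE release M21, a span of 124 kb. In order along the chromosome they are Gimap8 (48647234 to 48660875), Gimap9 (48676129 to 48679114), Gimap4 (48684549 to 48692060), Gimap6 (48701582 to 48708225), Gimap7 (48718621 to 48724636), Gimap1 (48739054 to 48743795), Gimap5 (48746197 to 48754210) and Gimap3 (48764464 to 48770851). Gimap6 and Gimap3 are on the minus strand and the other 6 on the plus strand. The longest annotated coding sequence is 2064 bases in Gimap8 and between 873 bases in Gimap9 and 984 bases in Gimap4 in the other 7. The closest pair is Gimap3 and Gimap5, with 88.9% identity over 899 aligned coding bases, against 73.3% for the next pair, Gimap7 and Gimap8, and 55.8% for the most distant, Gimap1 and Gimap9. Of the 50-base stretches in Gimap3 transcripts 8.15% also occur in another gene, mostly Gimap5, and 4.53% of those of Gimap5 do, so their counts depend on how shared reads were treated, and the sources used here do not state it. In Gimap1, 36.0% of exon bases lie opposite exons of the antisense gene Gimap1os, and without a known strand setting reads from both cannot be told apart. Exon bases shared with Gm28053, a gene model on the same strand, make up 6.44% of Gimap1, 3.69% of Gimap5 and 3.48% of Gimap7. In Gimap1 they lie within the part opposite Gimap1os and do not add to it.

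The promoters of the 3 members with the most reads in PB and of Gimap9, which had the most reads in MCC, iPSC and MEF, are shown, because the 8 genes were high in the same libraries but to different degrees. Each runs 5′ to 3′ from 250 bases before to 50 bases after the start site, from RefSeq on GRCm38 (mm10). Capitals mark the letters AGGAAG or GGAAGT on either strand, forms of the site bound by ETS factors such as PU.1 and ETS1; the forms can overlap.
Gimap3, chr6:48770802-48771101, minus strand: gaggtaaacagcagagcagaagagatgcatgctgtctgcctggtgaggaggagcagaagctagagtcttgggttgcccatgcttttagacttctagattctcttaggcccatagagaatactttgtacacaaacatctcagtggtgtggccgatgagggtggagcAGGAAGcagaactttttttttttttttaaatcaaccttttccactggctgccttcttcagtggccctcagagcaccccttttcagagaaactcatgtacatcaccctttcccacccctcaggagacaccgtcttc
Gimap6, chr6:48708195-48708494, minus strand: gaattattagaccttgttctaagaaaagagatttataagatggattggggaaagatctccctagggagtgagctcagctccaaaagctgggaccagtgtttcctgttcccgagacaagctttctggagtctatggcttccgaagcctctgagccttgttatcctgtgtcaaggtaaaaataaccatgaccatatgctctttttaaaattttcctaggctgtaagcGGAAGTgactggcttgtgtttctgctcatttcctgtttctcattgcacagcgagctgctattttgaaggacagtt
Gimap4, chr6:48684328-48684627, plus strand: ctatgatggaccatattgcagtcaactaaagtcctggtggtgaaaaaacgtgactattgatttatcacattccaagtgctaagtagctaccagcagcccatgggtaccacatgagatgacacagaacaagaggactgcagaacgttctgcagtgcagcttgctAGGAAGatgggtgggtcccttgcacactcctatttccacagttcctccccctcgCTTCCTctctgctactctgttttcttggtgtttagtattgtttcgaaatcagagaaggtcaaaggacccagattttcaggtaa
Gimap9, chr6:48675885-48676184, plus strand: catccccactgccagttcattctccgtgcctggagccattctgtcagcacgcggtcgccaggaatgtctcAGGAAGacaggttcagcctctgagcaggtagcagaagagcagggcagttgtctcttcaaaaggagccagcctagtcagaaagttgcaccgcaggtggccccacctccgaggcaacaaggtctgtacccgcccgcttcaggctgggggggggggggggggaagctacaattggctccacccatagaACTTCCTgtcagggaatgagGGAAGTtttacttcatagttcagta

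All 8 members matched the RefSeq table. The form GGAAGT was added to the search after the sequences were seen. At least 1 of the ETS forms was in 7 of the 8 promoters, against 45.7% of 27025 promoters of the same length; Gimap8 has none at its first listed start site and 1 at its second. AGGAAG alone was in 6 of 8, against 35.1% of all promoters, and GGAAGT in 4 of 8, against 24.1%. The RUNX letters TGTGGT were in 3, Gimap1, Gimap4 and Gimap7, against 16.9% of all, and the GATA letters AGATAA in 0, against 11.4%. The TCF letters TCAAAG were in 2 (16.2% of all), the GC box GGGCGG in 2 (35.9%), the E-box letters CAGGTG in 1, Gimap9 (20.03%), and TATAAA in 1, Gimap6 (14.2%). All letters were searched on both strands. The Gimap9 promoter held the most CpG pairs, 8, and the highest GC content, 57.3%. The other first start sites held 2 to 4 CpG pairs, below the median of 7 over all promoters. Gimap9 also carries a run of 17 G. These matches describe letters and do not show that a factor binds.

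Every member was highest in PB and next highest in BM, and 7 of the 8 were at trace levels in the other 3 libraries. The summed level of the 8 genes was 1.34 CPM in MCC (95% interval 1.02 to 1.74), 1838 CPM in PB (1822 to 1853), 176 CPM in BM (172 to 180.3), 3.31 CPM in iPSC (2.83 to 3.84) and 1.66 CPM in MEF (1.30 to 2.10). PB and BM stand apart from each other and from the rest, iPSC is above MEF and MCC, and the intervals of MCC and MEF overlap. The order iPSC, MEF, MCC rests on Gimap9. Without it, the other 7 members summed to 0.417 CPM in MCC, 1800.4 CPM in PB, 159.9 CPM in BM, 0.134 CPM in iPSC and 0.370 CPM in MEF, so that iPSC was then the lowest.

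**Figure D1:**
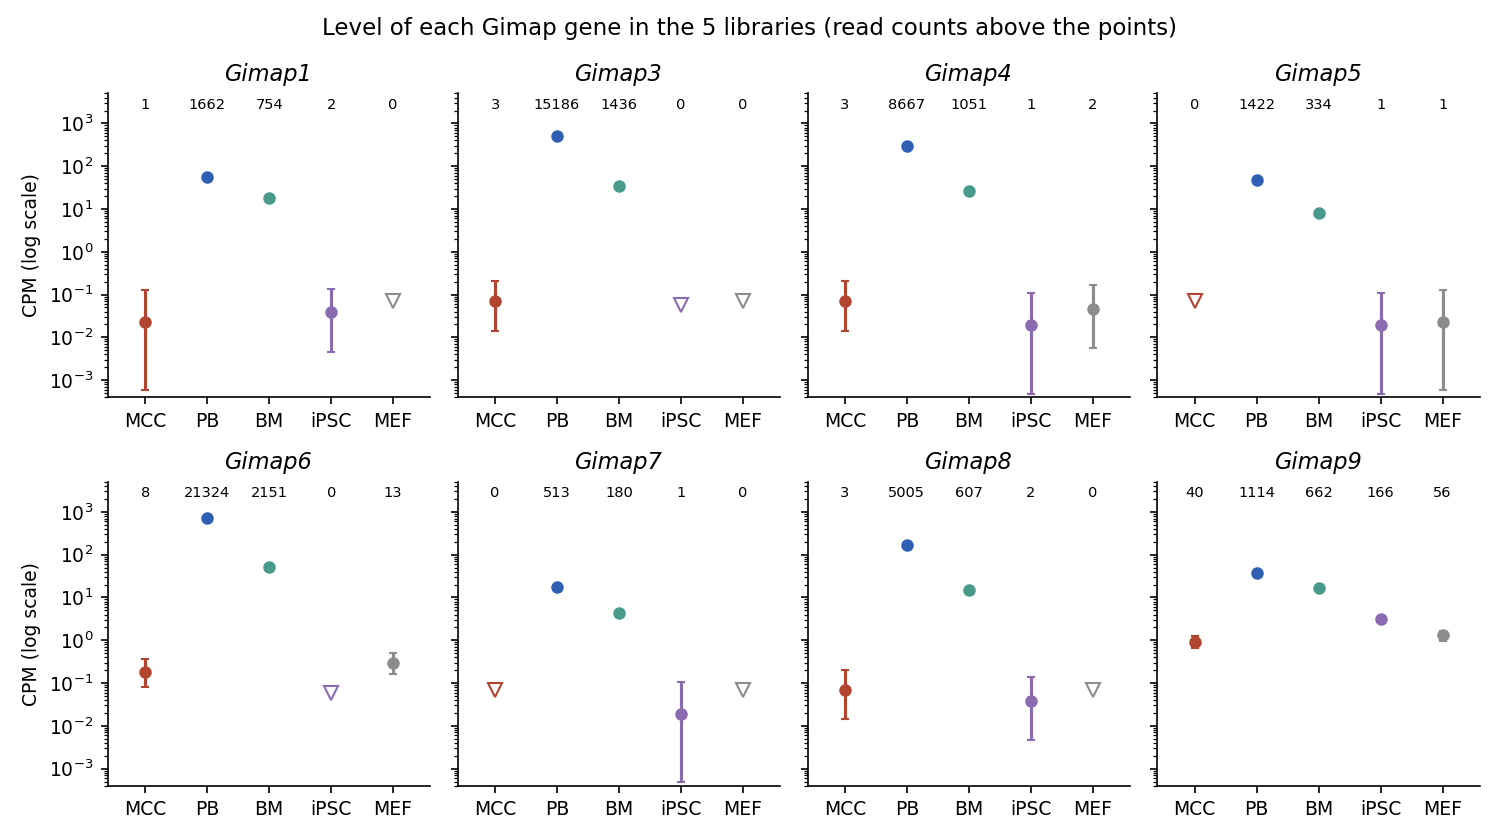
Level of each Gimap gene in CPM on a log axis in MCC, PB, BM, iPSC and MEF, 1 library each, with exact 95% counting intervals and the read count above each point. Open triangles stand at 3 reads for libraries with 0 reads. All 8 genes peak in PB with BM second, and Gimap9 alone has over 13 reads in MCC, iPSC or MEF.

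Gimap6, the autophagy-linked member, had the most reads. Its level was 0.185 CPM in MCC (8 reads), 714 CPM in PB (21324 reads), 52.8 CPM in BM (2151 reads), 0 reads in iPSC and 0.301 CPM in MEF (13 reads). Gimap6 ranked at place 157 of all genes by CPM in PB, a rank that is not corrected for transcript length. The 8 and 13 reads in MCC and MEF do not differ beyond counting error, at 1.62-fold lower in MCC (0.624 to 4.52).

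Gimap3 was at 0.0694 CPM in MCC (3 reads), 508 CPM in PB (15186 reads) and 35.3 CPM in BM (1436 reads), with 0 reads in iPSC and in MEF. Gimap5, the relative whose loss depletes T cells, had 0 reads in MCC, 47.6 CPM in PB (1422 reads), 8.20 CPM in BM (334 reads) and 1 read each in iPSC and MEF. Both genes were high and low in the same libraries.

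Gimap4, linked to T cell death, had 0.0694 CPM in MCC (3 reads), 290.2 CPM in PB (8667 reads), 25.8 CPM in BM (1051 reads), 1 read in iPSC and 2 reads in MEF. Gimap8, the large member, had 0.0694 CPM in MCC (3 reads), 168 CPM in PB (5005 reads), 14.9 CPM in BM (607 reads), 2 reads in iPSC and 0 in MEF. Neither gene was above 3 reads in any library but PB and BM.

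Gimap1, needed by mature T and B cells, had 0.0231 CPM in MCC (1 read), 55.6 CPM in PB (1662 reads), 18.5 CPM in BM (754 reads), 2 reads in iPSC and 0 in MEF. Gimap7, whose human counterpart splits GTP as a dimer, had 0 reads in MCC, 17.2 CPM in PB (513 reads), 4.42 CPM in BM (180 reads), 1 read in iPSC and 0 in MEF. Both were high in PB and BM alone, and Gimap7 was the only member below 5 CPM in BM.

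Gimap9 departed from the rest. It had 0.926 CPM in MCC (40 reads, 0.661 to 1.26), 37.3 CPM in PB (1114 reads, 35.1 to 39.6), 16.3 CPM in BM (662 reads, 15.0 to 17.5), 3.18 CPM in iPSC (166 reads, 2.71 to 3.70) and 1.29 CPM in MEF (56 reads, 0.978 to 1.68). The iPSC interval lies above those of MEF and MCC, which overlap each other. Gimap9 thus held 69.0% of the 58 family reads in MCC (Clopper-Pearson 95% interval 55.5 to 80.5), 2.03% of the 54893 in PB, 9.23% of the 7175 in BM, 96.0% of the 173 in iPSC and 77.8% of the 72 in MEF.

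MCC was set against PB, the contrast that chose the family. All 8 members had at least 5 CPM in PB and were at least 4-fold lower in MCC, where 15.4% of the 12545 genes at 5 CPM in either library were. Gimap3 was 7322-fold lower in MCC (2505 to 35510.1), at place 4 of 10245 genes ordered by the ratio with counts under 3 set to 3. Gimap4 was 4179-fold lower (1429 to 20268) at place 12, and Gimap6 3856-fold lower (1956 to 8932) at place 13. Gimap8, with 3 reads in MCC, was 2413-fold lower (825 to 11706). Gimap1 had 1 read in MCC, and its ratio of 2404-fold lower (431 to 95013) rests on that read; at 3 reads, as used for the calls, ranks and medians, it was 801-fold lower. Gimap5 and Gimap7, with 0 reads in MCC, were at least 686-fold and at least 247-fold lower. For these and later folds marked as at least, 0 reads were taken as 3 and counting error was left out. Gimap9 was 40.3-fold lower (29.4 to 56.7), at place 692.

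**Figure D2:**
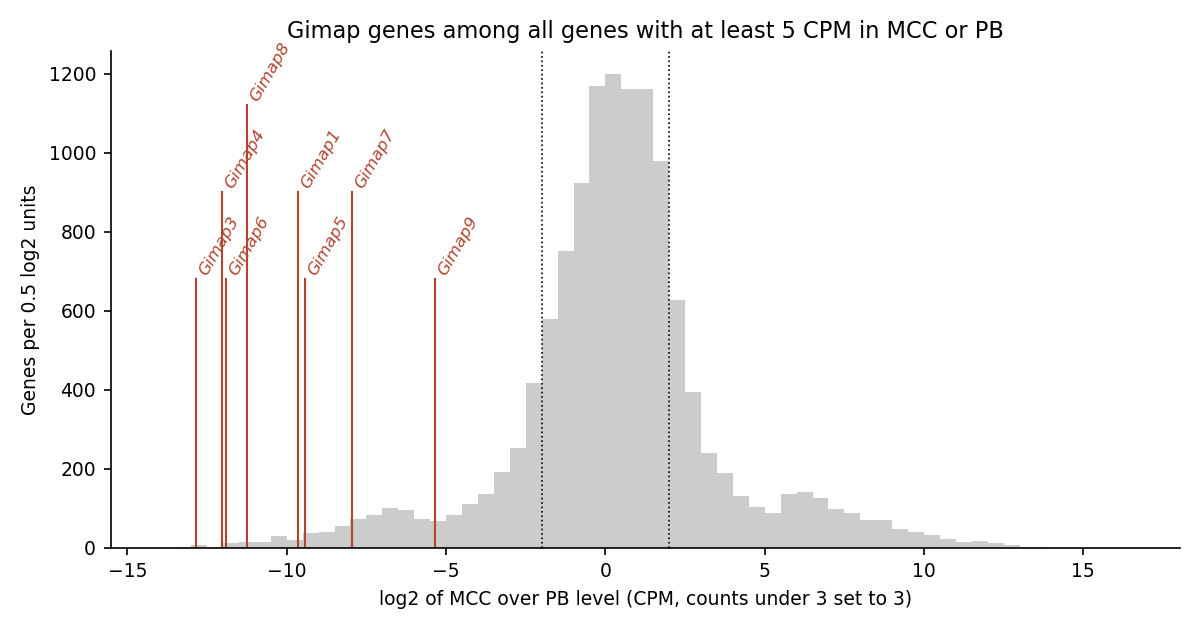
Number of genes per 0.5 units of the log2 ratio of MCC over PB, for the 12545 genes with at least 5 CPM in either library, with counts under 3 set to 3; dotted lines mark 4-fold. Red lines of arbitrary height mark the 8 Gimap genes, which lie between −12.84 for Gimap3 and −5.33 for Gimap9.

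Genes of several blood lineages, not of lymphocytes alone, were low in MCC alongside the family, and most other immune GTPases were not. Of 20 T cell receptor and coreceptor genes, 19 were at least 4-fold lower in MCC than in PB, with a median log2 ratio of −9.92, and the exception, Thy1, had 665 CPM in MCC against 166 CPM in PB. All 12 NK and cytotoxic genes were lower (median −8.92), and so were 11 of 12 B cell genes (median −11.08). Outside the lymphocytes, 7 of 7 erythroid genes at 5 CPM (median −12.81), 9 of 9 neutrophil genes (median −7.30) and 4 of 5 platelet genes (median −5.04) were lower in MCC too, while macrophage genes had 7 of 12 higher and 1 lower (median 3.12). Few genes of the lists that were lower reached 5 CPM in MCC: 2 T cell, 1 NK, 2 B cell, 0 erythroid, 2 neutrophil and 2 platelet genes. The others entered through PB and could be called only lower or neither. For the members the median was −10.44, and for all 12545 genes 0.38. Pan-leukocyte genes were lower for 4 of 10 (median −1.86), and Ptprc, the gene of the CD45 antigen, had 64.3 CPM in MCC against 2327 CPM in PB. Of 11 interferon-inducible GTPases of the GBP, IRG and MX families, 2 were lower and 9 neither (median 0.02), with Irgm1 at 80.1 CPM in MCC and 36.4 CPM in PB. Gbp4, the highest of them in PB, was among the lower ones, at 0.972 CPM in MCC, 106.5 CPM in PB and 10.4 CPM in BM. Septins, the structural relatives, had 3 genes higher, 2 lower and 4 neither of 9 at 5 CPM. Reported GIMAP partners and autophagy genes had 3 higher, 2 lower and 6 neither of 11. The defining T cell gene Cd3e was at 0 reads in MCC, 2130 reads in PB, 150 reads in BM, 24 reads in iPSC and 0 reads in MEF. The part of these cell types in the family's difference was not tested.

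Against BM the family was also lower in MCC. Of the 7 members with at least 5 CPM in BM, 7 were at least 4-fold lower in MCC, against 13.5% of 12427 genes, with a median log2 ratio of −8.06 against 0.11 for all genes. A member had to be above 5 CPM in BM to enter, and none reached it in MCC, so the count could go only that way. Gimap3 was 508-fold lower (173 to 2465), Gimap4 372-fold (127 to 1805), Gimap6 285-fold (144 to 661) and Gimap8 215-fold (73.1 to 1044). Gimap5 was at least 118-fold lower and Gimap9 17.6-fold (12.8 to 24.8). Gimap1 was 799.8-fold lower from its 1 read in MCC (143 to 31631) and 267-fold lower at 3 reads. Gimap7, at 0 reads in MCC and 4.42 CPM in BM, was below the level set for a call. The comparisons with PB and with BM share the MCC library.

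Against MEF and iPSC no member could be called in either direction, since 0 of 8 reached 5 CPM in MCC, MEF or iPSC. Over all genes, 4-fold changes were found upwards for 8.05% and downwards for 2.71% in MCC against MEF, and 11.3% higher and 9.77% lower in MCC than in iPSC. Gimap9 was 1.40-fold lower in MCC than in MEF (0.916 to 2.15), an interval that holds 1, and 3.43-fold lower than in iPSC (2.42 to 4.97). Gimap6 had 8 reads in MCC and 0 in iPSC, 3.23-fold higher in MCC with 0 reads taken as 3. That value leaves out the counting error of so few reads. The other 6 members were at or below 3 reads in MCC, MEF and iPSC, where no fold is given. In the same comparison with MEF 12 of 12 macrophage genes passed 4-fold upwards in MCC (median log2 ratio 11.77), as did 9 of 10 pan-leukocyte genes (median 9.24) and 8 of 9 other immune GTPases (median 4.29). In MEF 0 macrophage genes, 1 pan-leukocyte gene and 2 of the other immune GTPases reached 5 CPM. The rest entered through MCC and could be called only higher or neither.

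The native libraries were compared with fibroblasts in turn. All 8 members were at least 4-fold higher in PB than in MEF, against 18.9% of 12507 genes, and the 7 that reached 5 CPM in BM were higher in BM than in MEF, against 17% of 12369 genes. Gimap6 was 2375-fold higher in PB (1389 to 4461) and 176-fold higher in BM (103 to 330.5) than in MEF. Gimap3, with 0 reads in MEF, was at least 7329-fold higher in PB and at least 508-fold higher in BM. Gimap9 was 28.8-fold higher in PB (22.0 to 38.4) and 12.6-fold higher in BM (9.55 to 16.8). No member reached 5 CPM in MEF, so each entered through PB or BM and these counts too could go only one way. These comparisons share the MEF library, and PB is also a library by which the family was chosen.

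PB was then set against BM, a contrast that the choice of the family did not use directly, although it shares the PB library with the one that did. All 8 members were higher in PB, 5 of them at least 4-fold, against 6.32% of 11377 genes, with a median log2 ratio of 3.01 for the members and −0.18 for all genes. The members fell into different ranges. Gimap3 was 14.4-fold higher in PB (13.7 to 15.2), Gimap6 13.5-fold (12.9 to 14.1), Gimap4 11.2-fold (10.5 to 12.0) and Gimap8 11.2-fold (10.3 to 12.3). Gimap5 was 5.81-fold higher (5.15 to 6.56). Gimap7 at 3.89-fold (3.27 to 4.63), Gimap1 at 3.01-fold (2.76 to 3.28) and Gimap9 at 2.29-fold (2.08 to 2.53) were short of 4-fold. The intervals of Gimap3, Gimap6, Gimap4 and Gimap8 do not overlap those of Gimap5, Gimap7, Gimap1 and Gimap9.

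The same ratio in lymphocyte gene lists gave a range for these values. The T cell list had a median of 18.8-fold higher in PB, and 20 of its 20 genes were at least 4-fold higher, from Cd4 at 5.63-fold to Cd28 at 50.7-fold. Gimap1, Gimap7 and Gimap9 lay below all 20 of them, Gimap5 below 19, Gimap4, Gimap6 and Gimap8 below 14 each, and Gimap3 below 13. The B cell list had a median of 2.98-fold, with 3 of 12 at least 4-fold higher. Its spread took in Gimap5 (2 B cell genes above it), Gimap7 (3 above), Gimap1 (6 above) and Gimap9 (9 above). Gimap3, Gimap4, Gimap6 and Gimap8 lay above all 12 B cell genes. NK and cytotoxic genes were at 6.06-fold with 8 of 12 called. Genes of naive lymphocyte homing and survival were at 6.08-fold with 9 of 14 called. Their log2 ratios ran from 0.76 to 4.84, a range that takes in all 8 members (1.20 to 3.85). Early B cell precursor genes went the other way, with 4 of 6 at least 4-fold lower in PB; Rag1, a recombinase gene short of 4-fold, was at 30.3 CPM in PB and 80.2 CPM in BM. Neutrophil genes were at least 4-fold lower in PB for 10 of 12, with S100a9 at 3583 CPM in PB and 19058 CPM in BM. Of the other lists, macrophage genes had 1 of 12 higher and 5 lower in PB, pan-leukocyte genes 1 of 10 higher, platelet genes 1 of 5 higher, erythroid genes 5 of 9 higher and 4 lower, endothelial genes 2 of 5 lower, and fibroblast genes 1 of 5 higher and 3 lower. Septins had 0 of 10 higher and 3 lower, reported GIMAP partners and autophagy genes 1 of 11 higher, and other immune GTPases 1 of 11 higher. No pluripotency gene reached 5 CPM in PB or BM. Over all 11377 genes at 5 CPM in either library, 719 were at least 4-fold higher in PB and 1101 lower. The part of these cell mixtures in the ratios of single members was not tested.

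**Figure D3:**
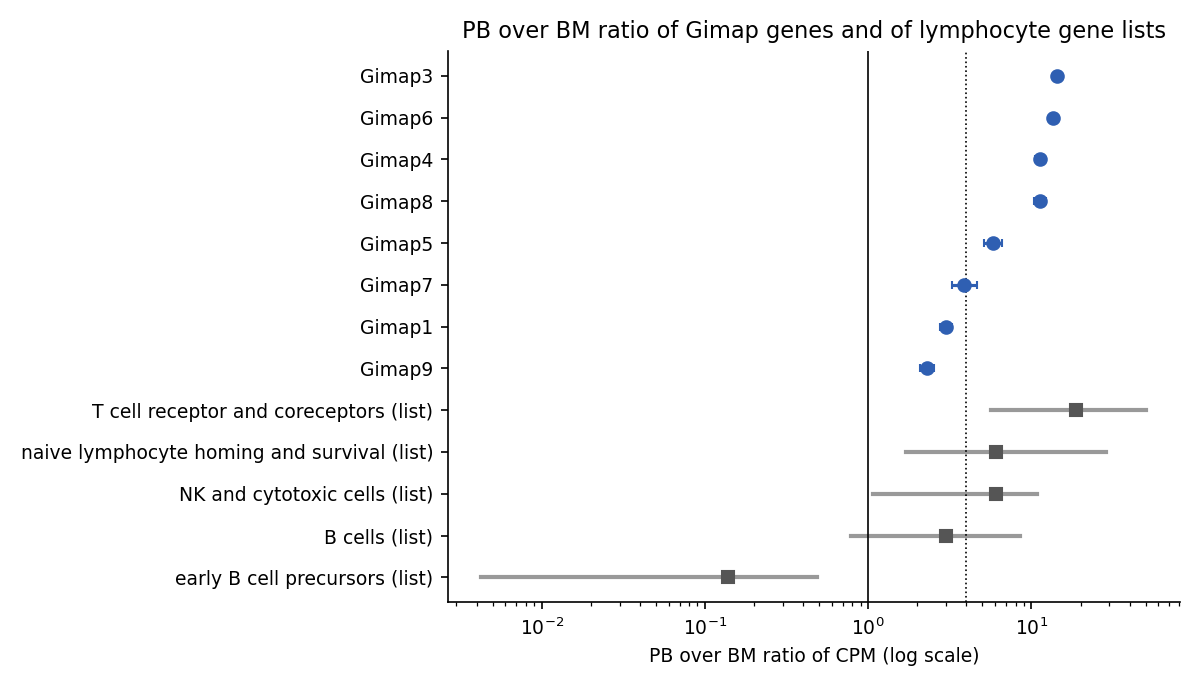
Ratio of the PB over the BM level on a log axis for the 8 Gimap genes (blue, with exact 95% counting intervals) and for 5 lymphocyte gene lists (squares are medians, lines run from the lowest to the highest gene at 5 CPM). The solid line is equality and the dotted line 4-fold; Gimap3, Gimap6, Gimap4 and Gimap8 lie above 11-fold and Gimap9 lies lowest at 2.29-fold.

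Levels of different members were compared per kilobase of annotated exon. In PB the level per kilobase was 204 CPM for Gimap6, 197 CPM for Gimap3 and 158 CPM for Gimap4, and these 3 genes made up 30.7%, 29.7% and 23.8% of the family total on that scale. Gimap8 followed at 45.3 CPM per kilobase, Gimap9 at 22.7, Gimap1 at 18.1 and Gimap5 at 11.5. In BM the same 3 genes led, at 15.1 CPM per kilobase for Gimap6, 14.0 for Gimap4 and 13.7 for Gimap3. Next in BM came Gimap9 at 9.90 CPM per kilobase and Gimap1 at 6.02. Gimap9 made up 3.42% of the total in PB and 14.8% in BM, and Gimap1 2.73% in PB and 9.04% in BM. Gimap7 was last in both, at 7.39 CPM per kilobase in PB and 1.90 in BM. With exon bases shared with other genes left out of all lengths, the share of Gimap1 was 4.19% in PB and 13.4% in BM. All reads were kept, so these shares hold only if reads of the shared bases went uncounted, which is not known. This alternative was added after the data were seen.

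**Figure D4:**
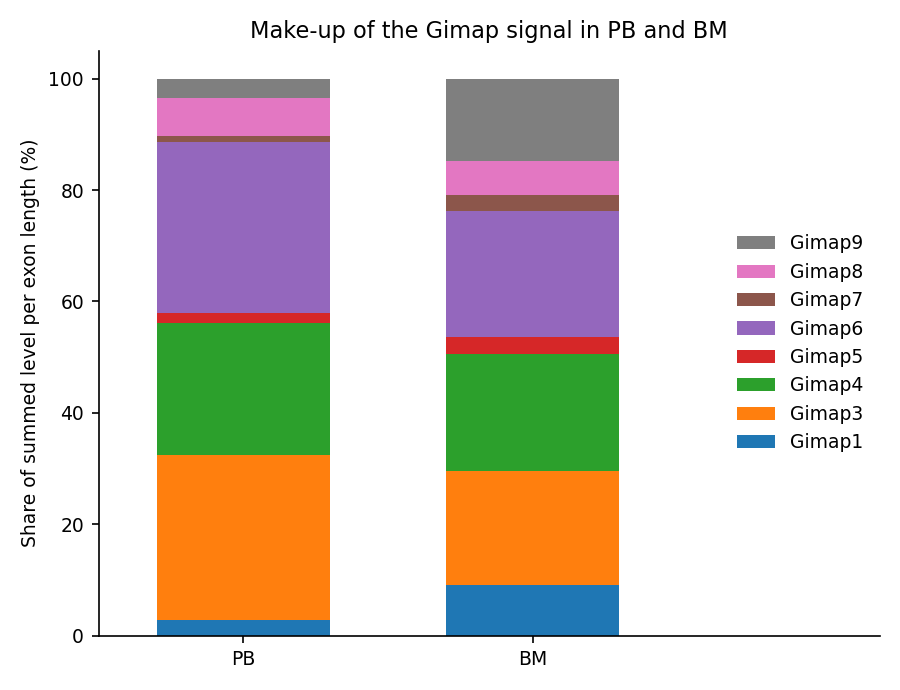
Share of each Gimap gene, in percent, in the summed family level of PB and of BM, with levels divided by annotated exon length and 1 library each. Gimap6, Gimap3 and Gimap4 form the largest blocks in both, and the blocks of Gimap9 and Gimap1 are larger in BM.

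The genes whose distribution over the 5 libraries came nearest to that of the family sum were listed as a description; that distribution includes the PB and MCC levels by which the family was chosen. Nearness was the part of the summed CPM that would have to be moved between libraries to make the profiles equal, over 13998 genes with at least 5 CPM in 1 library. The family sum lay 0.0664% in MCC, 91.0% in PB, 8.72% in BM, 0.164% in iPSC and 0.0824% in MEF. The 10 nearest genes were Prf1 (perforin), Cd300e (an activating receptor of monocytes), Cd3d (a T cell receptor chain), Gzmb (granzyme B), the noncoding RNA gene Ifngas1, Btla (an inhibitory receptor of B and T cells), Klra8 (an NK receptor), Rasgrp1 (a Ras activator of T cells), Il7r (the interleukin 7 receptor chain) and Bcl2a1a (a survival factor of the BCL2 family). Their distances ran from 0.00215 for Prf1 to 0.00968 for Bcl2a1a. Among the members themselves Gimap8 (0.00811) and Gimap4 (0.00827) lay within that range, while Gimap1 (0.162) and Gimap9 (0.277) were farthest from the family sum. Btla had 0.0694 CPM in MCC, 453 CPM in PB and 41.2 CPM in BM. Il7r had 0.185 CPM in MCC, 341 CPM in PB and 36.5 CPM in BM. With PB holding most of each profile, any gene with a PB to BM ratio near the 10.4-fold of the family sum and almost no reads elsewhere scores as near.

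Most protein-coding genes next to the cluster did not share its pattern. Other protein-coding genes within 200 kb numbered 8 at 5 CPM in any library. Of these, 6 were highest in MCC, 1 in PB and 1 in iPSC. Some led by little: Repin1 had 28.1 CPM in MCC against 17.6 CPM in MEF, and Zfp775 11.5 against 8.93 CPM. AI854703 reached 5 CPM in MCC alone, at 5.02 CPM. The share of all genes that were highest in MCC was not computed, so these counts have no background. Tmem176a and Tmem176b encode paired membrane proteins of myeloid cells and start 70.1 and 70.6 kb beyond the start of Gimap3. Tmem176b stood at 409 CPM in MCC, 30.9 CPM in PB, 40.5 CPM in BM, 8.32 CPM in iPSC and 93.6 CPM in MEF, and was 13.2-fold higher in MCC than in PB (12.4 to 14.2). Tmem176a had 220.1 CPM in MCC against 13.9 CPM in PB, 15.9-fold higher (14.4 to 17.6). Up to 3.42% of their exon bases overlap annotated exons of other genes on either strand, so a small part of each count is uncertain. On the other side Rarres2, which encodes the chemoattractant chemerin, had 98.2 CPM in MCC against 0.569 CPM in PB. Lrrc61, the gene highest in PB, had 8.45 CPM in MCC against 15.7 CPM in PB. With 13.1 CPM in BM it had the family's order of PB and then BM, but with far smaller differences.

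**Figure D5:**
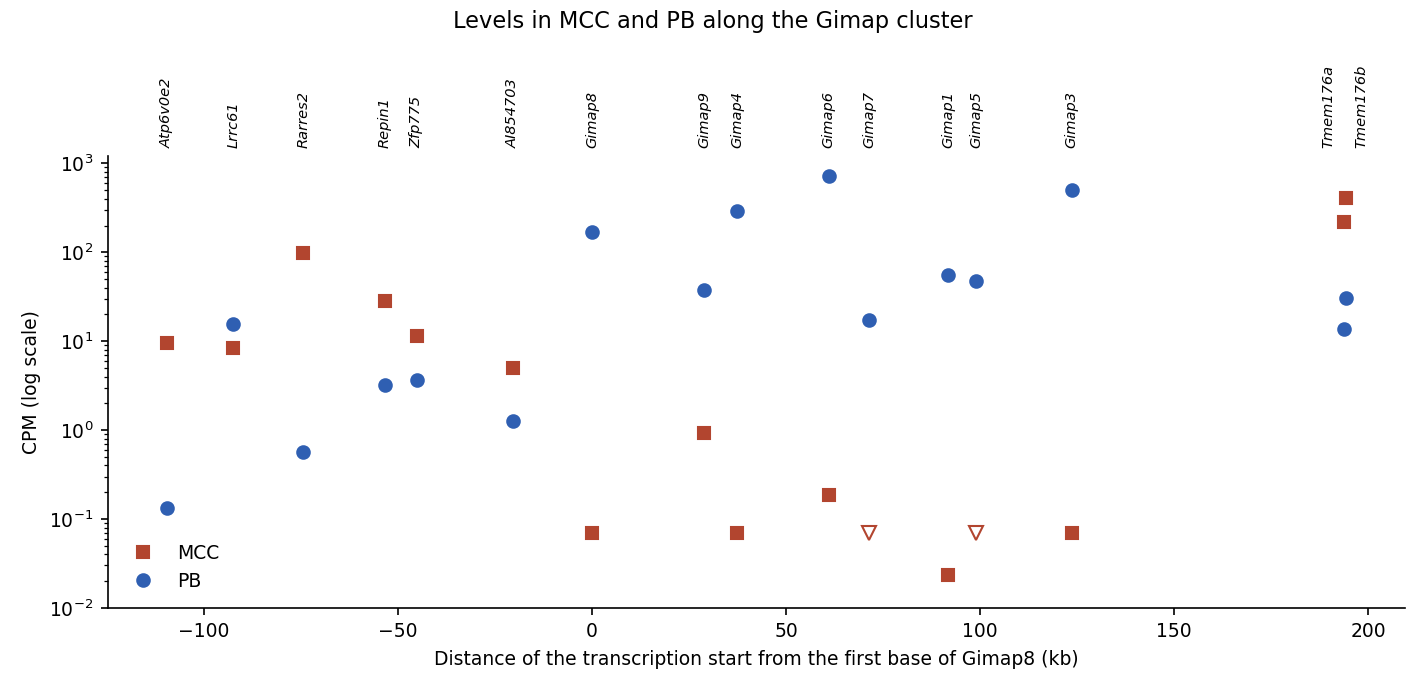
Level in CPM, on a log axis, of the 8 Gimap genes and the 8 other protein-coding genes within 200 kb that reached 5 CPM, in MCC (squares) and PB (circles), against the distance of each start site from the first base of Gimap8 in kb. Open triangles stand at 3 reads for genes with 0 reads. PB is above MCC for all 8 Gimap genes and below it for 7 of the 8 neighbours, all but Lrrc61.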

How the data were processed

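RNA from 5 mouse libraries was extracted with Trizol and polyA RNA taken, per the labels' protocols. The authors deposited unnormalized whole-number read counts per gene symbol. The submitters' processing notes name STAR, featureCounts and mm10. The sources used here do not state versions, annotation, strand setting or the treatment of shared reads. Each of the 5 columns matched its library by name.

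Counts were divided by TMM-scaled library sizes (CPM) with edgeR 4.0.16 in R 4.3.3, and the rest with Python 3.11.15, scipy 1.17.1, Biopython 1.88 and matplotlib 3.10.9. Calls needed 5 CPM in the higher library and a 4-fold CPM ratio, counts of 0 to 2 being raised to 3. Libraries with 0 reads enter a fold at 3 reads, and the fold is marked as at least. Such folds leave out counting error and are not 95% limits. Intervals are exact at 95% (Poisson for levels, conditional binomial for ratios, Clopper-Pearson for shares). With total counts between 30078366 and 47557598, 3 reads were 0.0574 to 0.100 CPM. Gene positions are from GENCODE M21. Calls were checked on simulated Poisson counts with planted differences. Those hold no spread between animals or batches, so the check covers the calling rule only. Alternatives were DESeq2 1.42.0 size factors, total counts, other levels and folds, the counting bound, and library sizes without haemoglobin, mitochondrial and the 10 most abundant genes of each library.

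The members and the 16 gene lists were chosen with earlier results of these data known. Named genes are the members, the list genes highest in PB or MCC, the defining genes of lists, the 10 genes nearest in pattern and the neighbours within 200 kb; the extremes of a list were named after their values were seen. The nearest genes leave out predicted genes and clones, mitochondrial genes, haemoglobins and immunoglobulin and T cell receptor segments.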

Additional observations from a re-analysis of the deposited data

How the results depend on the processing

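Of 35 recomputed counts of called members whose reported count is above 0, 33 stayed within 1.5 times that count; counts of 0 are left out, since they had no member to lose. At a minimum of 20 CPM, 3 members rather than 7 were called lower in MCC than in BM and 3 higher in BM than in MEF, since fewer members reach that level in BM. Between PB and BM, 6 members were called with DESeq2 size factors, Gimap7 passing 4-fold, and 4 at 8-fold. DESeq2 size factors shifted all log2 ratios of MCC over PB by −0.28, of PB over BM by 0.18 and of PB over MEF by 0.26; total counts shifted those of MCC over iPSC by −0.39. The summed level in PB was 2095 CPM with DESeq2 size factors and 2068 CPM on the reduced library sizes, that in BM 198 CPM on the reduced sizes, and that in iPSC 3.95 CPM on total counts. Without division by length the share of Gimap9 was 2.03% in PB and 9.23% in BM, and that of Gimap5 2.59% in PB and 4.66% in BM. No paired analysis was possible because each group has 1 library. Depth limits the MCC, iPSC and MEF values, where most members had 0 to 3 reads.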

Other observations

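Noncoding genes inside the cluster were also read mainly in PB. Gimap1os, antisense to Gimap1, had 0 reads in MCC, 8.74 CPM in PB (261 reads), 0.638 CPM in BM (26 reads), 1 read in iPSC and 0 in MEF, and was 13.7-fold higher in PB than in BM (9.13 to 21.4), against 3.01-fold for Gimap1 itself. Because strand was not known, how reads of the shared bases were divided between both genes cannot be told. The long noncoding RNA genes Gm44226 and 4833403J16Rik, between Gimap5 and Gimap3, had 6.36 and 1.81 CPM in PB, 1.13 and 0.466 CPM in BM and 0 reads in MCC, iPSC and MEF. These genes were named after their values were seen.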
